A study of Mus musculus with 2 samples.

Results

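Of the 768 barcodes on 2 SORT-seq plates, 571 did not pass the quality filter and are described here as failed barcodes. Each plate had 384 barcodes, of which 64 passed on the fresh and 132 on the MeOH-fixed plate as filtered cells. The failed barcodes were chosen by their transcripts, genes and the ratio of these, as the barcodes of the unfiltered counts that the filtered counts lack, and the values that chose them are given without a test. A further barcode, on the fresh plate, exceeded the upper limit of 35000 transcripts and was left out. The cells came from the dentate gyrus (DG) of C57BL/6J mice aged 4 to 5 weeks, which was dissociated with enzymes. Fresh cells, pooled from 3 mice, were stained for dead cells with Sytox at the sort. MeOH-fixed cells, pooled from 4 mice, were kept in methanol in a freezer for 3 weeks, rehydrated in SSC and sorted without this stain. Since each condition is 1 library of pooled animals, the fixation, the stain and the plate cannot be told apart, no test was made, and the exact 95% intervals given below cover counting error only. On each plate 8 wells were left empty as controls, and their barcodes were not identified here, so that the failed barcodes may hold them.

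In SORT-seq, cells are sorted into wells that hold a primer with a well barcode and a unique molecular identifier (UMI), and poly(A) RNA is copied from that primer. A barcode with few transcripts can come from an empty well, from a damaged cell or from RNA carried over with the sorted droplet or between libraries. Transcripts of the mitochondrial genome lie behind a membrane of their own and their share is commonly read as a sign of cell quality. Ribosomal RNA, cytosolic mRNA, nuclear noncoding RNA and mRNA carried into cell processes sit in other places of a cell. The failed barcodes were therefore described by compartment and by cell type, without assigning a source to them.

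The failed barcodes held 95650 UMIs on the fresh and 83655 on the MeOH-fixed plate, which was 14.2% and 10.3% of all UMIs of the plates. Of them, 288 on the fresh and 231 on the MeOH-fixed plate lay below 800 transcripts, and the other 31 and 21 had enough transcripts but 500 genes or fewer. The median number of transcripts was 168 for fresh and 192 for MeOH-fixed failed barcodes, the highest were 3482 and 2934, and 1 fresh barcode had no UMI. Close to the limits, the failed barcodes richest in genes had 495 and 500 genes and the poorest filtered cells 518 and 519. Of the fresh failed UMIs, 44.6% lay in the barcodes with at least 800 transcripts, and of the MeOH-fixed ones 33.9%. The barcodes carry the same 384 numbers on both plates, and 211 numbers failed on both.

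Mitochondrially encoded RNA made up the larger part of what the fresh failed barcodes held. It took 56.2% of their UMIs (exact Clopper-Pearson interval 55.9 to 56.5%), against 13.9% in the filtered cells of the same plate (13.8 to 14%). In MeOH-fixed failed barcodes it took 28.8% (28.4 to 29.1%), against 10.2% (10.1 to 10.3%). Over single barcodes the median share was 44.7% in the fresh failed barcodes (lowest 0%, highest 97.9%) and 12.8% in the fresh filtered cells (0.968 to 65.1%). In the MeOH-fixed failed barcodes it was 26.7% (0.964 to 89.2%), and in the filtered cells 11.2% (2.16 to 45.5%). The failed and filtered ranges therefore overlapped on both plates.

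**Figure D1:**
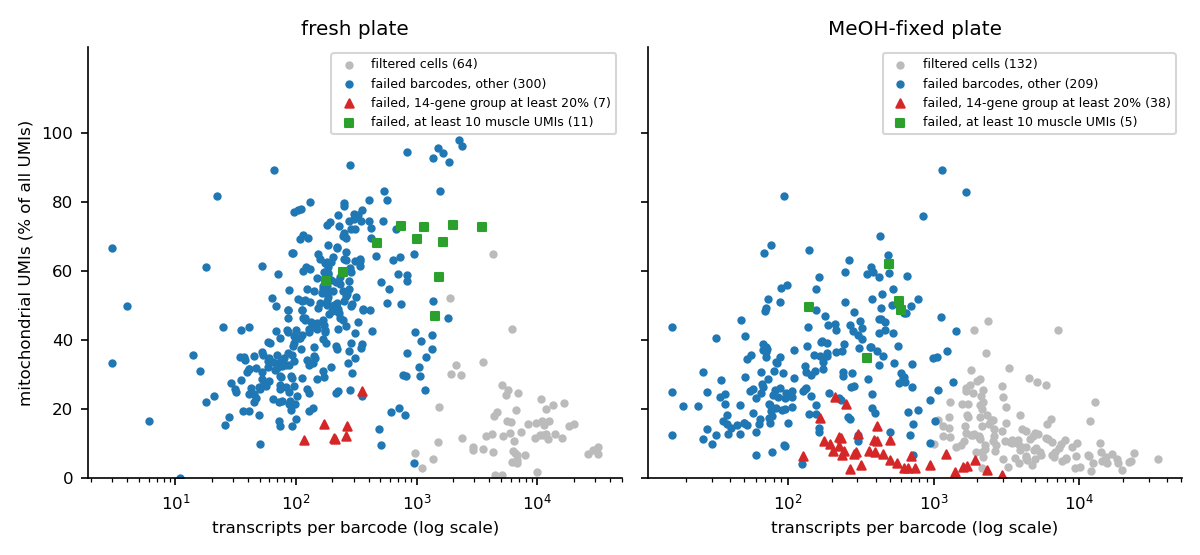
Mitochondrial UMIs as a percentage of all UMIs (y axis) against transcripts per barcode (x axis, log scale), with each point a barcode. Failed barcodes of the fresh plate spread from 0 to 97.9%, while the MeOH-fixed failed barcodes rich in a group of 14 genes described in the text (red triangles) lie near the bottom, together at 5.34%. Choosing barcodes by that group lowers their mitochondrial share, as both are shares of the same UMIs.

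The share was related to depth in different ways on the plates. In fresh failed barcodes it was 29.8% below 50 transcripts, 35.4% from 50 to below 100, 49.0% from 100 to below 200, 52.9% from 200 to below 400, 53.1% from 400 to below 800 and 64.1% above that. In MeOH-fixed failed barcodes the same bands had 21.3, 30.2, 31.0, 29.4, 32.5 and 24.2%. The fresh share of pooled UMIs was thus higher in deeper bands. However, the failed barcodes of the deepest band had enough transcripts and were chosen by their low number of genes. Depth and this choice cannot be told apart in that band, and the effect of the choice on its share was not tested. Below 800 transcripts the pooled share was 49.9% for fresh and 31.1% for MeOH-fixed failed barcodes. The fresh bands on either side of 400 transcripts did not differ beyond counting error, which leaves out the spread between barcodes. Medians over single fresh barcodes were 28.6, 33.0, 48.7, 53.2, 61.3 and 58.4%, so that the deepest band did not have the highest median. The MeOH-fixed share of pooled UMIs showed no such order. Among barcodes with at least 100 UMIs, at least 50% of UMIs were mitochondrial in 120 of 214 fresh and 24 of 168 MeOH-fixed failed barcodes, and in 2 of 64 and 0 of 132 filtered cells, where a count of 0 allows up to 2.76% of cells by the exact interval. In 13 fresh and 2 MeOH-fixed failed barcodes the share was at least 80%.

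The mitochondrial genome encodes respiratory chain subunits, 2 rRNAs and the tRNAs needed to translate them. In fresh failed barcodes the 13 mRNAs took 40.7% of UMIs and the 2 rRNAs 15.4%, against 10.1% and 3.78% in filtered cells. Their mixture was almost the same in both, since the mRNAs were 72.4% of mitochondrial UMIs in failed and 72.8% in filtered fresh barcodes. In MeOH-fixed barcodes the mRNAs were 79.2% and 84.1%, and the rRNAs were 20.6% and 15.9%. The tRNAs had 66 fresh and 62 MeOH-fixed UMIs in failed barcodes.

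All 14 mitochondrial genes with at least 100 UMIs in a failed pool had a larger share of UMIs in failed barcodes on each plate. The 16S rRNA mt-Rnr2 was the most abundant, with 10732 UMIs (11.2% of all) in fresh failed barcodes, against 2.83% in filtered cells, a ratio of 3.96. In MeOH-fixed failed barcodes it had 3749 UMIs and a ratio of 3.79. On the fresh plate mtNd2, a subunit of complex I, had the highest ratio with 4.94 (log2 ratio 2.31, interval 2.25 to 2.36), and mtAtp8, a short reading frame of the ATP synthase, the lowest with 2.80. Among MeOH-fixed values the highest ratio was that of mtNd5 (4.38) and the lowest that of mtNd3 (1.80), both of complex I. The other mRNAs lay between these values, with mtAtp6 at 3.56 and 2.35, mtCytb at 3.99 and 2.86 and mtCo1 at 3.41 and 2.57 on the fresh and MeOH-fixed plates. The 13 fresh barcodes with at least 80% mitochondrial UMIs had mt-Rnr2 as 17.0% of these UMIs, and all fresh failed barcodes had it as 20.0%.

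The failed barcodes also had fewer genes at equal depth, which is a description because the number of genes was a criterion of the filter. After each barcode was thinned to 100 UMIs, the median was 49 genes in 214 fresh failed barcodes (105 with fewer UMIs left out) and 83.5 in filtered cells. For MeOH-fixed barcodes it was 61 in 168 barcodes (84 left out) and 86. Without thinning, the failed barcodes had medians of 71 and 105.5 genes and the filtered cells 2259 and 1448.5. When only nuclear genes were counted at 50 nuclear UMIs the values were closer, with 42 and 46 genes for fresh and 44 and 47 for MeOH-fixed failed barcodes and filtered cells. With all genes counted at 50 UMIs they were 31 and 44.5 for fresh and 37 and 46 for MeOH-fixed failed barcodes and filtered cells. The gap at 50 UMIs was therefore smaller once mitochondrial UMIs were set aside, but the barcodes were not the same. Nuclear genes were counted in 233 fresh and 197 MeOH-fixed failed barcodes, and all genes in 281 and 227.

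For the comparison of nuclear genes, the UMIs of a pool were scaled to a common total of nuclear-encoded UMIs, in the usual CPM unit (with 41867 nuclear UMIs in fresh and 59601 in MeOH-fixed failed barcodes, 459791 and 654718 in filtered cells). Genes with a mean of at least 100 CPM over both pools were compared, which were 1943 fresh and 1832 MeOH-fixed ones, and a gene could pass this filter through one pool alone. Past 2-fold and with an interval of the ratio that excluded 1, 233 genes were higher in fresh failed barcodes (12% of those compared) and 119 lower (6.12%). In MeOH-fixed failed barcodes 118 were higher (6.44%) and 408 lower (22.3%). Without the condition on the interval the counts were 295 higher (15.2%) and 278 lower (14.3%) for the fresh plate, and 121 (6.60%) and 540 (29.5%) for the MeOH-fixed one. The median log2 ratio was 0.0064 for fresh and -0.52 for MeOH-fixed barcodes. Scaled to all UMIs, mitochondrial ones included, the medians were -0.97 and -0.86, so that the following ratios are relative to other nuclear RNA, and more of one RNA cannot be told apart from less of the others. Of the genes past 2-fold, 51.5% were higher on the fresh plate, or 7.45% when scaled to all UMIs, and 18.3% on the MeOH-fixed plate, or 10.4% so scaled and 50.2% with the median set to 0.

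**Figure D2:**
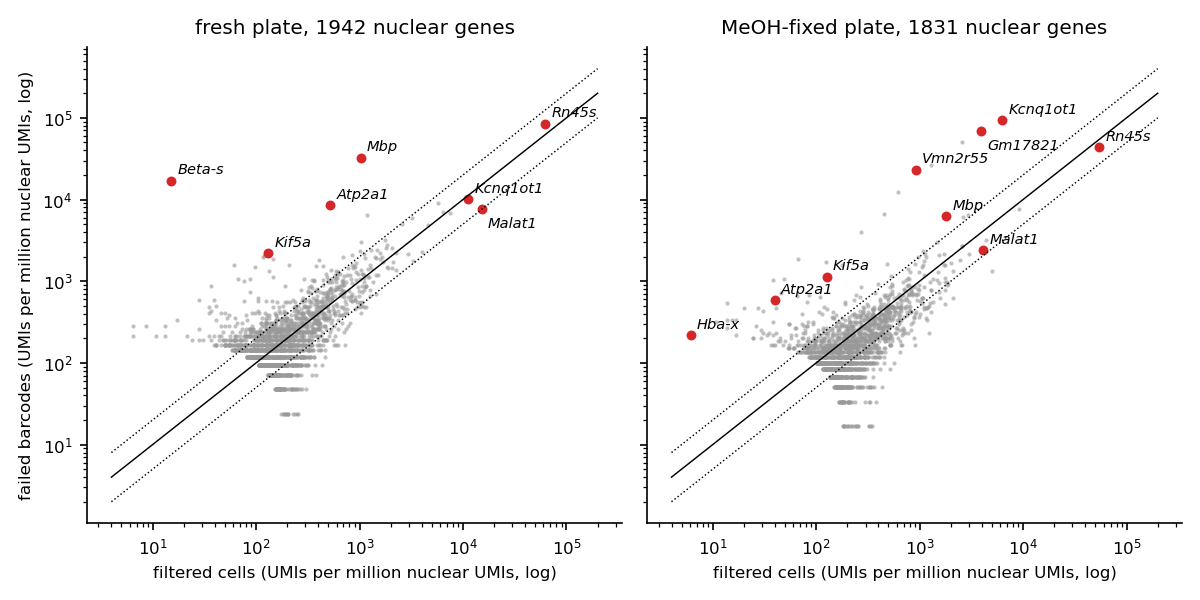
Level of each nuclear gene in failed barcodes (y axis) against filtered cells (x axis), both in CPM of nuclear UMIs on log axes, for genes with a UMI in both pools. The solid line marks equal levels and the dotted lines 2-fold, and Mbp (log2 ratio 4.99) and Beta-s (10.13) stand above the fresh cloud, while Kcnq1ot1 (3.88) and Vmn2r55 (4.66) stand above the MeOH-fixed one.

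In fresh failed barcodes the nuclear gene that had the most UMIs beside the ribosomal RNA locus was Mbp (chromosome 18, 82475146 to 82585637 in GRCm38). It encodes myelin basic protein of oligodendrocytes, and its mRNA is known to be carried into their processes and translated at the myelin sheath. It had 1365 UMIs in 151 fresh failed barcodes, at most 47 in a single one, and 472 UMIs in 25 of 64 filtered cells, 245 of them in a single cell. This was 32603 against 1027 CPM, a log2 ratio of 4.99 (interval 4.84 to 5.14), and 4.95 without the failed barcode that held most. Among MeOH-fixed barcodes Mbp had 377 UMIs in 67 failed barcodes and 1175 in 62 filtered cells, a log2 ratio of 1.82 (1.65 to 1.99). Mbp was thus spread over many failed barcodes on both plates, with a larger ratio on the fresh plate, where 2 of 64 filtered cells were oligodendrocytes, next to 13 of 132 on the MeOH-fixed plate.

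The other oligodendrocyte genes had far lower ratios than Mbp. Ptgds makes prostaglandin D2, and Cnp is an enzyme of uncompacted myelin. Ptgds had 10 failed and 323 filtered fresh UMIs (log2 ratio -1.56), 226 of the latter in a single cell, without which the ratio was 0.13, and Cnp had 22 and 344 (-0.51, interval -1.20 to 0.11, or 0.20 without the cell that held most), with 57 and 1018 on the MeOH-fixed plate (-0.70, -1.11 to -0.32). Of the 106 MeOH-fixed Ptgds UMIs in failed barcodes (0.69), 73 lay in a single one. Mobp, a protein of compact myelin named after its values were seen, was the other gene of the list that was higher past 2-fold on the fresh plate, with 13 and 51 UMIs (1.49). Over the whole list of 15 oligodendrocyte genes the fresh summed level had a log2 ratio of 1.97 (1.89 to 2.06), but the median over its 13 compared members was -0.51. Past 2-fold, 2 of them were higher and 4 lower, next to 15.2% and 14.3% of all fresh genes compared. Of the barcodes with at least 100 UMIs, 91 of 214 fresh and 23 of 168 MeOH-fixed failed ones had at least 5 Mbp UMIs, and 4 of 64 and 21 of 132 filtered cells did. The summed MeOH-fixed log2 ratio was -0.23 (-0.33 to -0.13), with 1 of 14 higher and 6 lower, next to 6.60% and 29.5% of all MeOH-fixed genes compared. The high value of the summed list on the fresh plate was therefore that of Mbp.

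The largest ratio on the fresh plate belonged to 1 barcode. Beta-s, an adult beta globin gene also named Hbb-bs (chromosome 7, 103826534 to 103828096), had 712 UMIs in fresh failed barcodes and 7 in filtered cells, a log2 ratio of 10.13. Of these, 707 lay in barcode number 244, which had 883 UMIs in all, 113 genes and 4.42% mitochondrial UMIs. Without it the log2 ratio was 3.00. The alpha globin Hba-a1, which red blood cells also make in large amounts, had 2 UMIs in fresh failed barcodes, and Alas2, the first enzyme of heme synthesis in red blood cells, had 2. Alpha globin reads can be lost because the gene has a near-identical copy and reads mapping to several places were discarded. In the MeOH-fixed barcodes Beta-s had 13 failed UMIs in 11 barcodes and 72 filtered UMIs, a log2 ratio of 0.99, and Hba-x, an embryonic globin gene, was among the 10 highest ratios with 13 and 4 UMIs (5.16, interval 3.46 to 7.23).

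Genes of skeletal muscle fibres formed a further part of the fresh failed RNA. Among the 10 highest ratios of the fresh plate were Trdn and Casq1 (calcium release), Mybpc2, Mylpf (myosin filament), Ckm (muscle creatine kinase) and Cox6a2 (the muscle form of a respiratory chain subunit), with log2 ratios between 4.40 and 5.46. A list of 26 muscle genes, chosen after these values were seen, had 1169 UMIs in 45 fresh failed barcodes and 779 in 34 filtered cells, and 124 and 123 UMIs on the MeOH-fixed plate in 15 and 31. Atp2a1, the calcium pump of fast fibres, led it with 360 failed and 239 filtered UMIs on the fresh plate (log2 ratio 4.05) and with 35 and 26 on the MeOH-fixed plate (3.89). Parvalbumin (Pvalb), which fast fibres and some interneurons make, had 90 and 56 UMIs on the fresh plate, and Myl1 85 and 55. The summed list had log2 ratios of 4.04 and 3.47, which support nothing since its genes were chosen for such values. As filtered cells also held many of its UMIs, it was compared by barcode number.

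Most muscle UMIs lay at the same barcode numbers on both plates. On the fresh plate the 8 richest numbers lay between 255 and 277, and 7 of these 8 were among the 8 richest on the MeOH-fixed plate. Number 267 led on both, with 437 muscle UMIs in a filtered fresh cell annotated as nIPCs + Neuroblasts and 44 in a failed MeOH-fixed barcode. Number 261 was second, with 337 in a failed fresh barcode and 35 in a filtered MeOH-fixed cell annotated as an immature neuron. Number 277 had 196 and 23, both in failed barcodes. At the 7 shared numbers the MeOH-fixed count was between 10.1 and 14.1% of the fresh count, whether or not the barcode passed the filter on that plate. Since these numbers were chosen for high counts on both plates, this range leaves out numbers with few MeOH-fixed UMIs. Number 269, also among the 8 richest fresh ones, had 112 and 4 (3.57%), and number 233 had 44 and 0.

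**Figure D3:**
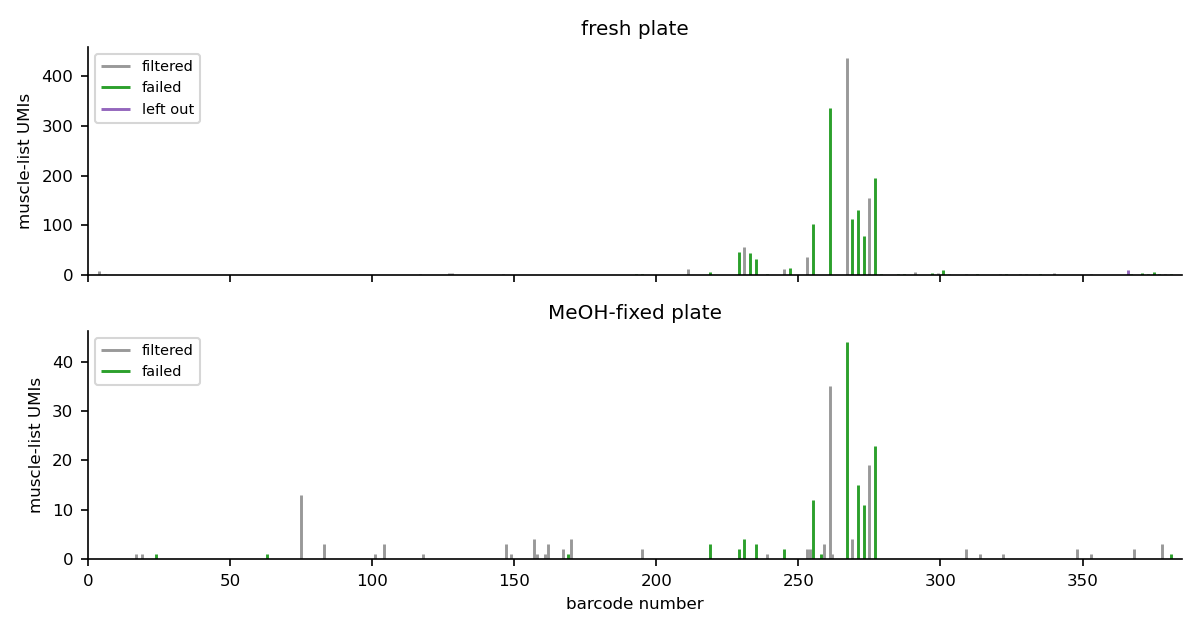
UMIs of the 26 muscle genes (y axis, different scales) at each of the 384 barcode numbers (x axis) on the fresh plate (top) and the MeOH-fixed plate (bottom), with failed barcodes in green, filtered cells in grey and the barcode left out in purple. The peaks lie at the same numbers on both plates, led by number 267 with 437 and 44 UMIs.

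Odd barcode numbers held 97.2% of fresh and 89.5% of MeOH-fixed muscle UMIs, and 41.9% and 52.4% of all UMIs. Over 4152 genes with enough UMIs, the correlation of a gene's UMIs across the 384 numbers between plates (a description, with the barcode sequence shared by each pair of points) had a median of 0.013, and the 4 highest values were those of Atp2a1 (0.876), Tnnt3 (0.714), Myl1 (0.522) and Pygm (0.323), all muscle genes. Mbp had 0.020 and Kcnq1ot1 0.069. In contrast, 15 fresh and 2 MeOH-fixed genes that lay mainly in 1 barcode had at most 1 UMI at the same number of the other plate, among them Beta-s with 707 UMIs at number 244 on the fresh plate and 1 UMI on the MeOH-fixed plate. The part that the barcode sequence, the wells or the handling of the plates had in the muscle pattern was not tested. Without the 14 numbers richest in muscle UMIs, 309 genes were higher and 267 lower past 2-fold on the fresh plate, of which 237 and 227 were among the 295 and 278 called with them.

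The remaining genes at the top of the fresh plate rested on few UMIs. Nrsn1, a neuronal membrane protein, had 12 failed and 6 filtered UMIs (log2 ratio 4.46, interval 2.93 to 6.16), and Neurl1a, a ubiquitin ligase of neurons, 9 and 5 (4.31, 2.57 to 6.23). They were accompanied by Kif5a (chromosome 10, 127225696 to 127263348), a kinesin motor of neurons, which with 93 failed UMIs in 53 barcodes, at most 6 in a single one, and 60 filtered UMIs had a log2 ratio of 4.09 (3.61 to 4.58). Its MeOH-fixed values were 68 UMIs in 34 failed barcodes and 83 in filtered cells, with a log2 ratio of 3.17 (2.69 to 3.65). Kif5a was therefore spread over many failed barcodes on both plates, as Mbp was.

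Kif5a belongs to a list of 10 mRNAs known from dendrites and axons, the other abundant members of which are Camk2a, a kinase of synapses, Ddn, a postsynaptic protein, and Map2, which binds dendritic microtubules. The log2 ratio of the list was 1.75 (1.51 to 1.97) for fresh and 0.84 (0.66 to 1.02) for MeOH-fixed barcodes. These sums rest in part on Kif5a, with 93 of 204 failed and 60 of 668 filtered fresh UMIs. On the MeOH-fixed plate it had 68 of 289 and 83 of 1768. The median over the compared members was 1.46 for fresh and 0.64 for MeOH-fixed barcodes. Past 2-fold, 4 of 7 compared members were higher in fresh failed barcodes and none lower, and 3 of 8 were higher and 1 lower on the MeOH-fixed plate, next to 15.2% and 6.60% higher of all genes compared. Camk2a had 21 failed and 84 filtered fresh UMIs (1.46, 0.69 to 2.16) and 70 and 348 MeOH-fixed ones (1.14, 0.75 to 1.52), and Ddn had log2 ratios of 2.0 and 0.49. Map2 had 0.50 and 0.61, with intervals that included 0 on both plates. The mature neuron list, which shares Camk2a with it, had summed log2 ratios of -0.32 (-0.69 to 0.023) and -0.42 (-0.64 to -0.21), and the latter turned to 0.083 (-0.15 to 0.31) without the barcodes rich in the 14-gene group described below and to 0.59 with equal weight for each identity.

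Of 1406 genes compared on both plates, 22 were higher past 2-fold on both and 115 lower on both, out of 139 and 75 higher and 217 and 410 lower on the fresh and MeOH-fixed plates. The 22 genes included Mbp, Atp2a1 and Kif5a. They also included the peptide-processing enzyme Cpe (128 and 118 failed UMIs, log2 ratios 1.55 and 1.05), Ndrg2 of astrocytes (58 and 51, 1.38 and 1.67), Sparc, a matrix protein (99 and 38, 1.23 and 1.25), Plekhb1 (56 and 33, 3.31 and 1.55) and C1qb of the complement system (45 and 25, 1.02 and 1.53), which were chosen after their values were seen. Plekhb1 had a UMI in 38 fresh and 20 MeOH-fixed failed barcodes.

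In MeOH-fixed failed barcodes a group of 14 genes stood apart. By a rule chosen after the values were seen (at least 8-fold higher and at least 50 UMIs in failed barcodes, 0.764% of the genes compared), it included Kcnq1ot1, Gm17821, A630089N07Rik, Grk4, Vmn2r55, Gm10785, A130077B15Rik, F830016B08Rik, Slfn9, Synj2bp, Kif5a, 9930111J21Rik1 and D830005E20Rik. The same rule chose 11 genes on the fresh plate (0.566%), with Kif5a as the gene in common. Kcnq1ot1 (chromosome 7, 143203458 to 143296549, minus strand) is a long noncoding RNA of the nucleus that runs antisense within the imprinted gene Kcnq1. It had 5539 UMIs in MeOH-fixed failed barcodes and 4122 in filtered cells, a log2 ratio of 3.88 (3.83 to 3.94), and 422 and 5193 on the fresh plate (-0.16, -0.31 to -0.02). Vmn2r55, annotated as a vomeronasal receptor, had 1380 and 601 UMIs on the MeOH-fixed plate (4.66, 4.52 to 4.80). The whole group had 17411 failed and 11065 filtered UMIs there, which was 29.2% and 1.69% of nuclear UMIs. On the fresh plate it had 1348 and 14874, which was 3.22% and 3.23%. Of these 14874 filtered fresh UMIs, 6347 lay in 1 cell, so that the nearness of the fresh shares rests on that cell.

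Sequences that several of these genes share are shown because the reads of such genes can be hard to tell apart. They were read from GENCODE vM21 transcripts on GRCm38, where 53 runs of 24 bases occurred in at least 3 of the 14 genes on the sense strand, 40 of them including Kcnq1ot1. Of these runs, 11 were on the same strand of none of the other listed genes. Capitals mark the run of 24 bases. The first was found in 4 listed genes, all of the group.
Kcnq1ot1, chr7:143225460-143225489, minus strand, exon without coding sequence: ttgCCTGCAGAGAGTACTCTGACCACTgat
A630089N07Rik, chr16:98064000-98064029, minus strand, exon outside the coding sequence: ttcCCTGCAGAGAGTACTCTGACCACTgag
9930111J21Rik1, chr11:48946460-48946489, minus strand, exon outside the coding sequence: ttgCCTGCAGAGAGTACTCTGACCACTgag
The second was found in 3 listed genes, all of the group, and on the opposite strand of 2 others.
Kcnq1ot1, chr7:143228292-143228321, minus strand, exon without coding sequence: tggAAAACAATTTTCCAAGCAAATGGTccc
A630089N07Rik, chr16:98062572-98062601, minus strand, exon outside the coding sequence: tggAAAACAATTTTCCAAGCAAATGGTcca
Grk4, chr5:34699325-34699354, plus strand, exon outside the coding sequence: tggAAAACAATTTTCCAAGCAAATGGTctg

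Another run occurred in 16 listed genes and is therefore not particular to the group.
A130077B15Rik, chr10:122565855-122565884, minus strand, exon without coding sequence: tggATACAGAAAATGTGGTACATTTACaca
Slfn9, chr11:82979245-82979274, minus strand, exon outside the coding sequence: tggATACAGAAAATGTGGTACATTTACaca
With Kcnq1ot1, A630089N07Rik shared 166 runs of 24 bases, Grk4 120 and A130077B15Rik 108, while Gm17821, Gm10785, Synj2bp and Kif5a shared none. Among all genes compared on the MeOH-fixed plate, these 3 were the ones that shared at least 100 with Kcnq1ot1, and their median log2 ratio was 4.28. This is a description, since the ratio chose the group. Genes that shared 10 to 99 had a median of -0.63 (122 genes), and genes that shared none had -0.49 (1282 genes). A shared sequence was thus found for some members of the group and not for all.

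A small set of barcodes held the group. In 38 of the 168 MeOH-fixed failed barcodes with at least 100 UMIs it took at least 20% of the UMIs (lowest 28.8%, median 59.4%, highest 82.3%), and these 38 held 92.6% of its UMIs in failed barcodes and 29.0% of all failed UMIs. They had a median of 394 transcripts and 148.5 genes, and 8 of them had at least 800 transcripts. Of their UMIs, 5.34% were mitochondrial, against 38.3% in the other 214 failed barcodes. As 16131 of their 24286 UMIs were of the group, choosing barcodes by the group itself lowers this share. On the fresh plate 7 failed barcodes with 117 to 349 UMIs met the same limit, with 11.1 to 25.2% mitochondrial UMIs, and so did 1 filtered cell annotated as Mature neurons (8572 UMIs, 74.0% from the group, 1.71% mitochondrial), which is 1 of only 2 cells of that identity on that plate.

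The 5 genes of the group with the most UMIs had the same order of shares in these barcodes as a whole and in the filtered cells of both plates, while their shares in single barcodes varied. In fresh failed barcodes Vmn2r55 had 7.86% and Grk4 6.68%, the reverse of that order. In the 38 barcodes Kcnq1ot1 was a median of 31.8% of the group's UMIs (range 21.4 to 40.4%), Gm17821 23.4% (18.6 to 30.4%), A630089N07Rik 17.1% (10.4 to 24.6%), Grk4 9.54% (3.20 to 13.7%) and Vmn2r55 7.95% (4.29 to 16.1%). In the filtered cells of the same plate these genes were 37.3, 23.0, 15.2, 7.67 and 5.43%, and in the filtered fresh cells 34.9, 23.0, 14.2, 9.18 and 6.41%. Of the 14874 group UMIs in the filtered fresh cells, 6347 came from the 1 cell rich in the group. Kif5a stood apart from the 5 genes with the most UMIs, with 65 of its 68 MeOH-fixed failed UMIs outside the 38 barcodes. Of the other genes with the 10 highest MeOH-fixed ratios, Mid1, Lipi, Psg28, Gm3002 and E330020D12Rik had 75 to 100% of their failed UMIs in the 38 barcodes, and Hba-x had none there. These 5 genes had 19 to 32 failed and 7 to 13 filtered UMIs, with log2 ratios between 4.46 and 5.29.

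**Figure D4:**
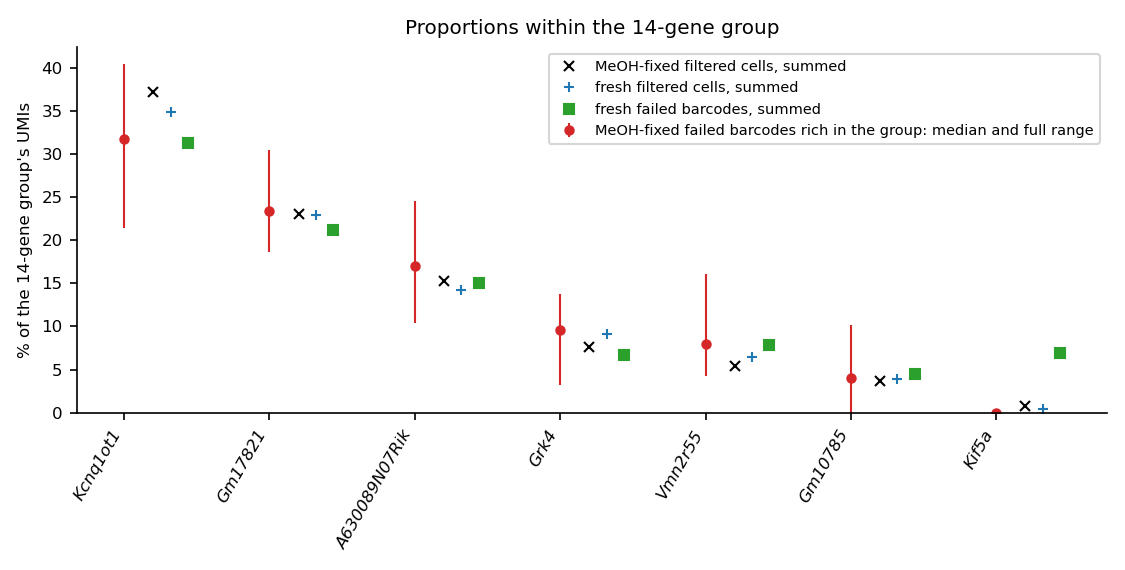
Share of 7 named genes in the UMIs of the 14-gene group (y axis), as the median and full range over the 38 MeOH-fixed failed barcodes rich in it (red) and summed over the filtered cells of each plate and the fresh failed barcodes. Kcnq1ot1 has the largest share in each, from 31.3% in fresh failed barcodes to 37.3% in MeOH-fixed filtered cells. Of the 14874 group UMIs in fresh filtered cells, 6347 lie in 1 cell. In fresh failed barcodes Vmn2r55 (7.86%) and Kif5a (6.90%) depart from the order and lie above Grk4 (6.68%).

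Since the group took up a large part of the nuclear UMIs, the other genes of the MeOH-fixed plate were also compared without the barcodes rich in it, which was decided with the data in view. The median log2 ratio was then 0.039 in place of -0.52, and 324 of 2123 genes were higher (15.3%) and 303 lower (14.3%) past 2-fold, of which 71 and 271 had been called so before. On the fresh plate these shares were 15.2% and 14.3%.

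Among cell type markers, the summed level of astrocyte genes was higher in MeOH-fixed failed barcodes, and on the fresh plate its sign depended on the setting, with -0.42 for all UMIs as the total. The 18 genes of astrocytes and radial glia-like cells (RGL) had a log2 ratio of 0.55 (0.46 to 0.65) for fresh and 0.94 (0.85 to 1.02) for MeOH-fixed barcodes, or 1.56 without the barcodes rich in the 14-gene group. Past 2-fold, 1 of 18 was higher and 3 were lower on the fresh plate, and 4 of 17 were higher and none lower on the MeOH-fixed plate, next to 15.2% higher of all fresh and 6.60% of all MeOH-fixed genes compared. Apoe, a lipid carrier, had 249 failed UMIs in 96 fresh and 367 in 94 MeOH-fixed barcodes (log2 ratios 0.89 and 1.24), and the glutamate transporter Slc1a2 had 210 and 182 (0.96 and 1.04). Glul (glutamine synthetase) had 0.90 and 0.94. In fresh failed barcodes with fewer than 800 transcripts alone the list had -0.16, so that its direction on that plate came from the richer barcodes.

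**Figure D5:**
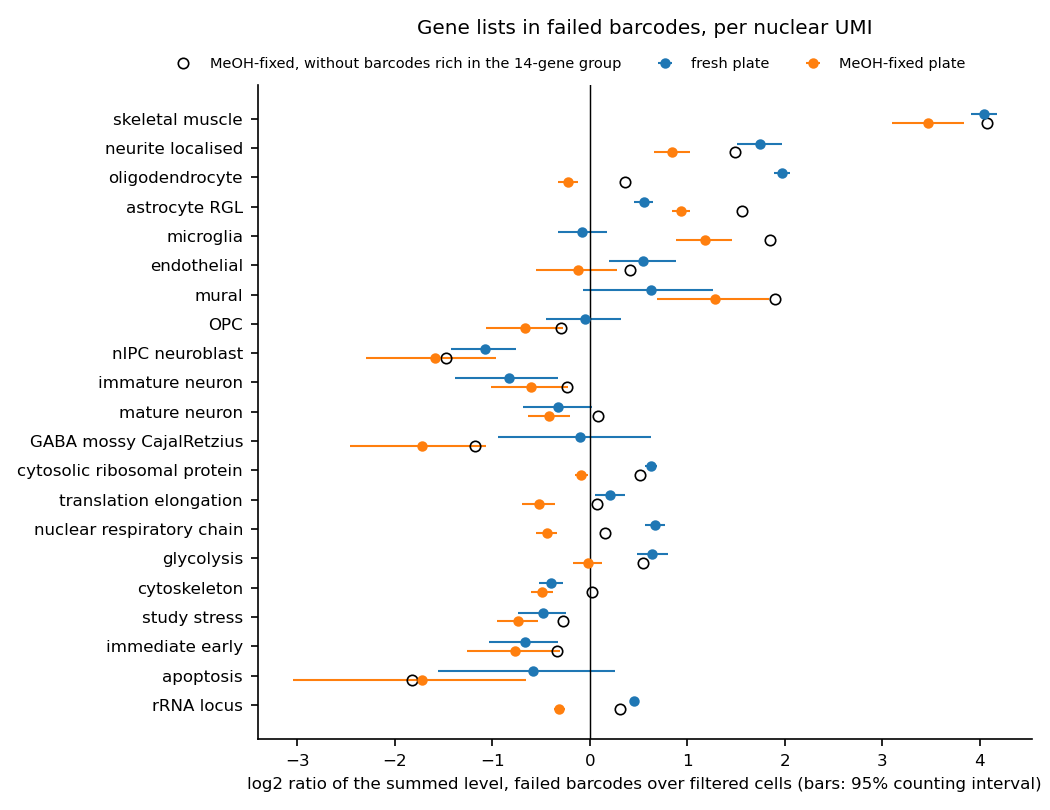
Log2 ratio of the summed level of gene lists, failed barcodes over filtered cells of the same plate, per nuclear UMI (x axis), with 95% counting intervals as bars. The lists of nuclear noncoding RNAs, red blood cell genes and choroid plexus and ependymal genes, and the 14-gene group, are not shown. Open circles give the MeOH-fixed plate without the barcodes rich in the 14-gene group, which moves the ribosomal protein list from -0.087 to 0.51 and the astrocyte list from 0.94 to 1.56.

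The list of neuronal intermediate progenitors (nIPCs) and neuroblasts had a log2 ratio of -1.08 (-1.43 to -0.75) on the fresh plate, where 5 of 6 compared genes were lower past 2-fold. On the MeOH-fixed plate it had -1.59 (-2.29 to -0.97), and both compared genes were lower. Of all genes compared, 14.3% of fresh and 29.5% of MeOH-fixed ones were lower. Sox11 and Neurod1, transcription factors of the list, had 29 and 12 failed against 660 and 354 filtered fresh UMIs. On the MeOH-fixed plate they had 6 and 3 against 208 and 148. Dcx, a microtubule protein of migrating neuroblasts, had 4 and 2 failed UMIs. When the identities of filtered cells had equal weight the fresh ratio was 0.086, and nIPCs and neuroblasts were 16 of the 64 filtered cells. The immature neuron list had -0.83 (-1.38 to -0.32) and -0.61 (-1.01 to -0.23), and oligodendrocyte precursor (OPC) genes had -0.053 (-0.45 to 0.32) and -0.66 (-1.07 to -0.28). Without the barcodes rich in the 14-gene group the MeOH-fixed values of both lists had intervals that included 0, with -0.23 (-0.68 to 0.19) and -0.29 (-0.75 to 0.13), and the immature neuron list had 0.047 with equal weight for each identity.

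Microglial genes were higher in failed barcodes on the MeOH-fixed plate. The 11 genes had -0.075 (-0.33 to 0.17) for fresh and 1.18 (0.88 to 1.46) for MeOH-fixed barcodes, with 144 and 121 failed UMIs. Past 2-fold, 1 of 10 compared genes was higher and 2 lower on the fresh plate. On the MeOH-fixed plate 3 of 6 were higher and none lower. Of all genes compared, 15.2% were higher and 14.3% lower on the fresh plate, and 6.60% and 29.5% on the MeOH-fixed plate. The difference between plates was not tested. C1qb and C1qc of the complement system had 45 and 7 fresh and 25 and 24 MeOH-fixed failed UMIs. The MeOH-fixed ratio was -1.37 when each identity had equal weight, and 7 of 132 filtered MeOH-fixed cells and 10 of 64 fresh ones were microglia. Endothelial genes had 0.55 (0.20 to 0.88) on the fresh plate, where 3 of 5 compared genes were higher past 2-fold, and -0.12 (-0.55 to 0.28) on the MeOH-fixed plate, and the fresh ratio was -0.78 in barcodes below 800 transcripts and -0.43 with all UMIs as the total. Mural cell genes had 0.63 (-0.07 to 1.27) and 1.28 (0.69 to 1.83) from 23 and 33 failed UMIs, of which a single barcode of each plate held 14 and 13. The largest count in a single failed barcode was 27 of 83 and 17 of 54 for endothelial genes. For microglial genes it was 37 of 144 and 25 of 121. GABAergic, mossy and Cajal-Retzius cell genes had 16 and 19 failed UMIs (-0.11 and -1.72), and of the choroid plexus and ependymal list a single failed UMI was counted, on the fresh plate.

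The summed RNA for translation and respiration made up more of the nuclear RNA in fresh failed barcodes than in filtered cells. The list of 79 cytosolic ribosomal protein genes had a log2 ratio of 0.62 (0.56 to 0.68), with 10 of 71 compared genes higher past 2-fold, a share near the 15.2% of all genes compared, and none lower, and Rplp1 had 87 failed and 388 filtered UMIs (1.30). Nuclear-encoded respiratory chain genes had 0.67 (0.56 to 0.77), with 21 of 66 higher and 1 lower, where Cox8a had 1.78 and Cox6a1 2.01. Glycolytic genes had 0.64 (0.48 to 0.80), where Aldoa had 1.53, and translation factors had 0.21 (0.06 to 0.36). Scaled to all UMIs these 4 lists turned to -0.35, -0.31, -0.33 and -0.77, because mitochondrial UMIs took up the greater part of the failed total.

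The same lists had MeOH-fixed log2 ratios of -0.087 (-0.16 to -0.017) for ribosomal proteins, -0.44 (-0.55 to -0.34) for the respiratory chain, -0.022 (-0.17 to 0.13) for glycolysis and -0.52 (-0.69 to -0.35) for translation. No ribosomal protein gene of 71 was higher past 2-fold and 2 were lower, and no respiratory chain gene of 63 was higher and 16 were lower, where 29.5% of all genes compared were lower. Without the barcodes rich in the 14-gene group the ratios were 0.51, 0.16, 0.54 and 0.075 (the last with an interval from -0.10 to 0.25), so that the signs for ribosomal protein and respiratory chain genes turned with those barcodes.

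Malat1 took a smaller share of nuclear UMIs in failed barcodes on both plates. Malat1 (chromosome 19, 5795690 to 5802672), an abundant noncoding RNA of the nucleus, had 321 failed and 6998 filtered fresh UMIs (log2 ratio -0.99, interval -1.16 to -0.83), and 143 and 2695 MeOH-fixed ones (-0.78, -1.03 to -0.54). Meg3 had -0.68 (-1.65 to 0.16) and -1.35 (-1.87 to -0.88). Without the barcodes rich in the 14-gene group the MeOH-fixed values were -0.52 (-0.82 to -0.24) for Malat1 and -0.81 (-1.36 to -0.31) for Meg3. The list of 10 nuclear noncoding RNAs had -0.59 for fresh and 2.89 for MeOH-fixed barcodes, in which Kcnq1ot1 is a member and the median of its 5 compared members was -1.30. Rn45s, the ribosomal RNA locus, had 3555 UMIs in 274 fresh failed barcodes (0.46, 0.41 to 0.51, or -0.52 for its list with all UMIs as the total) and 2585 in 212 MeOH-fixed ones (-0.32, -0.38 to -0.26), where it turned to 0.30 (0.24 to 0.36) without the barcodes rich in the 14-gene group.

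The summed levels of stress and immediate early genes were lower in failed barcodes on both plates. The stress genes used in the study, 17 in all, had -0.48 (-0.73 to -0.24) for fresh and -0.74 (-0.95 to -0.53) for MeOH-fixed barcodes, where the latter was -0.27 (-0.50 to -0.048) without the barcodes rich in the 14-gene group and the plate median was -0.52. Lower past 2-fold were 1 of 6 fresh and 2 of 6 MeOH-fixed stress genes, and 3 of 7 and 0 of 3 immediate early genes, next to 14.3% and 29.5% of all genes compared. Among the stress genes, the chaperones Hsp90ab1 and Hspa8 had 50 and 37 fresh and 66 and 58 MeOH-fixed failed UMIs. Immediate early genes, which neurons switch on with activity, had -0.67 (-1.04 to -0.32) and -0.77 (-1.26 to -0.31), with 18 and 9 failed UMIs of Jun, and the second ratio was -0.34 (-0.89 to 0.16) without the barcodes rich in the 14-gene group. In filtered cells this list was highest in microglia on both plates, with 17893.5 CPM (fresh) and 11741.5 CPM (MeOH-fixed). Its ratios were thus not those of neurons alone. Genes of apoptosis had 12 and 7 failed UMIs in all (-0.58, -1.56 to 0.26, and -1.72, -3.05 to -0.65). Cytoskeletal genes had -0.40 (-0.53 to -0.28) and -0.49 (-0.61 to -0.38), and the alpha tubulin Tuba1a had 74 failed UMIs on the fresh and 55 on the MeOH-fixed plate (-0.88 and -1.03). Without the barcodes rich in the 14-gene group the cytoskeletal MeOH-fixed ratio was 0.027.

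The 10 lowest ratios on each plate were of genes with 1 failed UMI each, so that their order is not resolved. On the fresh plate these were Sort1, Nufip2, Napa, Nono, Rev3l, Nell2, Apc2, Lrpap1, Plcb1 and Clk1, with 88 to 117 filtered UMIs. Their MeOH-fixed counterparts were G3bp2, Erdr1, Scn8a, Miat, Sez6l, Reln, Clk1, Atxn2l, Crmp1 and Abi1, with 147 to 229. Their log2 ratios ran from -3.41 to -3.00 and from -4.38 to -3.74, and the interval of the lowest fresh one, Sort1, reached from -8.73 to -0.91. Clk1, a kinase of splicing factors, was named on both plates. Reln, which Cajal-Retzius cells and interneurons secrete, had its 165 filtered UMIs in 5 cells.

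As a whole, the failed barcodes were closer to all filtered cells of their plate than to any single identity. Across the genes compared, which are not independent replicates and share a library, the correlation of log2 levels with all filtered cells was 0.681 for fresh (1943 genes) and 0.660 for MeOH-fixed barcodes (1832 genes). Against single identities it was highest for astrocytes and RGL (0.518 and 0.575), which were 18 and 29 filtered cells, and between 0.324 and 0.450 for the others. Identities with few UMIs have noisier levels. Over the 1406 genes compared on both plates, failed barcodes of one plate and the other had 0.748 and filtered cells 0.835.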

How the data were processed

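Values are the deposited expected counts of 2 plates, before and after filtering. Per the labels and the study's methods, the authors mapped reads to GRCm38 with STAR, discarded reads with several equal matches, removed duplicates by UMI, and adjusted the UMI numbers for the chance that molecules share a UMI. Their identities of filtered cells were used as deposited. R 4.2.0 and Seurat 4.1.0 stand in the submitters' processing notes. Spike-ins were used here for filtered cells only. All columns were mapped to a plate by name (0 were not).

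The adjustment was inverted to whole UMIs (largest distance from a whole number 3.64e-12). UMIs were summed per plate over failed barcodes and filtered cells. Shares have Clopper-Pearson intervals, and ratios exact conditional binomial intervals, at 95%. Failed barcodes passed or failed by the study's limits: 800 to 35000 transcripts, over 500 genes, transcripts per gene above 1.2 and over 500 spike-in counts. Barcodes were thinned to 100 UMIs without replacement with a fixed seed. Doublets were not called. Named genes are the 10 highest and 10 lowest ratios per plate with an interval off 1, mitochondrial genes with at least 100 UMIs, and up to 4 members per list, those with most UMIs in failed barcodes. The alternatives were the scaling, the filter, the threshold and the barcodes used.

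The members, lists and alternatives were chosen with earlier results of these data known. The 14-gene group, the muscle list, the limits for kinds of barcodes (80% mitochondrial, 20% group, 10 muscle UMIs, 5 Mbp UMIs) and the sequence search were chosen after values were seen, and so were genes named for a pattern (those higher on both plates, Mobp, Alas2). Sequences and positions are from GENCODE vM21, with transcripts for 15314 of 15474 genes (784 by an older symbol). Overlapping genes and close copies can share or lose reads. Some genes are not reported here. Simulated counts were used to test the comparison. The tools were matplotlib 3.10.9, SciPy 1.17.1, Python 3.11.15, pandas 2.3.3 and NumPy 2.4.6.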

Additional observations from a re-analysis of the deposited data

Results flagged for a closer look

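With 1 library per plate, none of the following differences between plates was tested. In 6 gene lists the log2 ratio of failed barcodes over filtered cells had opposite signs on the fresh and the MeOH-fixed plate, with intervals off 0 on both. The ratios were 0.62 and -0.087 for cytosolic ribosomal proteins, 0.67 and -0.44 for the nuclear-encoded respiratory chain, 0.21 and -0.52 for translation factors, 0.46 and -0.31 for the ribosomal RNA locus, 1.97 and -0.23 for oligodendrocyte genes, and -0.59 and 2.89 for nuclear noncoding RNAs. Without the barcodes rich in the 14-gene group the MeOH-fixed values were 0.51, 0.16, 0.075, 0.31, 0.36 and 0.25.

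Of the 1406 genes compared on both plates, 15 were higher past 2-fold in fresh and lower in MeOH-fixed failed barcodes. Of the same 1406 genes, 139 were higher on the fresh plate and 410 lower on the MeOH-fixed plate. Without the barcodes rich in the 14-gene group 6 of these 15 were still lower past 2-fold on the MeOH-fixed plate, with 1 to 5 MeOH-fixed failed UMIs each. They were Ndrg1, Nme1, Pianp, Rpl36al, Sdha and Vdac2, named after their values were seen. With all failed barcodes, the intervals of Nme1 on the fresh plate (-0.0048 to 1.92) and Pianp on the MeOH-fixed plate (-3.09 to 0.21) included 0. Another 3 genes, A130077B15Rik, Gm19757 and P2ry12, a receptor of microglia, were lower on the fresh and higher on the MeOH-fixed plate. In all, 217 of the 1406 genes were lower on the fresh plate and 75 higher on the MeOH-fixed plate. P2ry12 had 5 failed and 154 filtered fresh UMIs, and 16 and 42 MeOH-fixed ones. Without those barcodes Gm19757 had a MeOH-fixed log2 ratio of -1.21, and 2 of the 3 genes remained higher past 2-fold.

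The fresh barcode left out for its 45331.9 transcripts (number 366, 7112 genes, 8.12% mitochondrial UMIs) held 314 UMIs of the mature neuron list, 103 of the immature neuron list and 7 of the oligodendrocyte list. The fresh failed barcodes together held 72 UMIs of the mature neuron list.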

How the results depend on the processing

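The mitochondrial share of failed barcodes stayed above that of filtered cells in each alternative. On the fresh plate (56.2%) it was 44.7% as a median over barcodes, 49.9% below 800 transcripts, 57.8% with at least 100 transcripts, 50.3% without the 10 richest barcodes, 40.9% with the barcode above 35000 transcripts, 48.2% without mitochondrial rRNAs, 56.9% without barcodes rich in the 14-gene group, 49.5% without those at least 80% mitochondrial and 54.4% without the 14 muscle-rich numbers. On the MeOH-fixed plate (28.8%) it was 26.7, 31.1, 31.5 (10 richest left out), 24.3 (no rRNAs), 38.3 (no group-rich), 26.8 (none at least 80% mitochondrial) and 27.9% (no muscle-rich numbers). The failed median of genes at equal depth, as a percentage of the filtered one, was 69.7% at 50 UMIs (fresh), and 91.3% (fresh) and 93.6% (MeOH-fixed) for nuclear genes. Genes past 2-fold were, higher and lower on the fresh plate, 76 and 944 with all UMIs as the total, 1476 and 1323 without a filter on low values, 75 and 30 at a mean of 300 CPM and 120 and 94 at 3-fold, and 119 were lower with an interval that excludes 1. On the MeOH-fixed plate they were 212 and 356 below 800 transcripts, 324 and 303 without the group-rich barcodes, 257 and 255 with the median set to 0, 1359 and 2156 without the filter, 36 and 77 at 300 CPM and 77 and 233 at 3-fold, and 191 were higher without the 10 richest. With the barcode above 35000 transcripts Nell2 (0.78) and Sort1 (0.25) reversed. Fresh lists reversed with all UMIs as the total: ribosomal protein -0.35, respiratory chain -0.31, rRNA locus -0.52, astrocyte -0.42, endothelial -0.43, glycolysis -0.33 and translation -0.77. Below 800 transcripts astrocyte (-0.16) and endothelial (-0.78) lists reversed, and with equal weight per identity endothelial (-0.95) and nIPC (0.086). MeOH-fixed lists reversed below 800 transcripts (ribosomal 0.19, oligodendrocyte 0.25), without the 10 richest (0.19 and 0.069), with equal weight (immature neuron 0.047, mature neuron 0.59, microglia -1.37, mural -0.63) and without the group-rich barcodes (ribosomal 0.51, respiratory 0.16, rRNA locus 0.31, oligodendrocyte 0.36, mature neuron 0.083, cytoskeleton 0.027, translation 0.075). The last setting left out whole barcodes with all their UMIs, and the cause of the changes was not tested in any setting. Of the other values, 197 of lists and 774 of genes stayed within their intervals, and 120 and 165 moved beyond them. No paired analysis was possible because each condition is 1 library. Depth limits genes with a few failed UMIs, and a failed pool of nuclear UMIs is about as large as a few filtered cells.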

Other observations

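The failed barcodes were not alike along the barcode numbers. In 8 successive runs of 48 numbers the mitochondrial share lay between 35.2% and 66.3% on the fresh plate, with the lowest value in the first run, and between 20.3% and 38.4% on the MeOH-fixed plate. Mbp UMIs of failed barcodes numbered 100 to 275 in each fresh run and 11 to 87 in each MeOH-fixed one. The 14-gene group took 1.46 to 5.68% of the nuclear UMIs of failed barcodes in the fresh runs and 9.60 to 45.0% in the MeOH-fixed ones, so that it was found along the whole range of numbers. The order of the wells on the plate was not used here.

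In the fresh barcodes with at least 100 UMIs, 183 of 214 failed ones were neither at least 80% mitochondrial nor rich in the 14-gene group or in muscle genes, and on the MeOH-fixed plate 123 of 168. These had medians of 50.9% and 35.6% mitochondrial UMIs.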
